A study of Mus musculus with 36 samples.

Results

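The libraries described here are the 9 of mouse duodenal organoids that received the gamma-secretase inhibitor DAPT in pulses with a period of 170 min, 3 each after 24, 48 and 72 h. They were chosen by that label alone, out of 36 libraries in 12 groups of 3; the other 27 came from DMSO and from DAPT pulses with periods of 90 and 130 min at the same durations. The organoids were grown from the crypts of C57BL/6 mice, male or virgin female, in ENR medium (EGF, Noggin and R-spondin) and were passaged 3, 2 or 1 days before the 24, 48 and 72 h experiments, so that each was harvested 4 days after passage. They were held under flow in a microfluidic chip, and 20 to 50 of them, with no enrichment for a cell type, gave each polyadenylated RNA sample. The labels name both 2.6 and 2 µM DAPT for the 170 min period, without assigning either to these samples, and do not describe the DMSO control as pulsed. For the 90 and 130 min periods they name 1.38 and 2 µM, so 90 min differs from the longer periods in dose as well as in period. They do not say whether replicates were separate cultures or animals, so p-values here measure the spread between samples, which may be technical. As the labels give it, the series asks whether entraining Notch oscillations shifts the cell types of the organoids; the comparison here is between durations within the 170 min period.

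DAPT blocks gamma-secretase, the protease that releases the intracellular domain of Notch receptors after a ligand has bound. In the intestinal crypt, Notch signalling drives Hes1, which represses Atoh1, the factor that commits progenitors to the secretory fate. Cells with Notch activity remain stem cells or become absorptive enterocytes, and cells without it become Paneth, goblet, enteroendocrine or tuft cells, or secretory progenitors. In ENR medium organoids hold all of these epithelial types, and immune, endothelial and fibroblast cells are usually lost on passage.

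Each library held between 841491 and 1447330 unique molecular identifier (UMI) counts, and 11152 of 34197 genes passed the filter on low counts. Levels are CPM (counts scaled to a common library total) after scaling by trimmed mean of M-values (TMM), and a list's level is the mean of log2(CPM + 1) over its tested members. Epithelial markers summed to 2617 to 3450 CPM in the 9 libraries, endothelial markers to 4.39 to 11.1 CPM and immune markers to 10.9 to 20.1 CPM. Transcripts encoded by mitochondria made up 0.923 to 1.22% of the counts. Every pair of replicates differed by more than counting noise.

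The libraries differed within each duration in a way that the labels do not describe. The summed level of 4 Y-linked transcripts (Ddx3y, Eif2s3y, Kdm5d and Uty) was 19.9, 341 and 4.11 CPM in 24 h replicates 1, 2 and 3. It was 23.1, 395 and 346 CPM at 48 h and 12.4, 5.89 and 102 CPM at 72 h. Xist, the RNA that coats the inactive X chromosome in female cells, was at 96.0 CPM in 24 h replicate 3 and below 1 CPM in the other 8 libraries. With a minimum of 50 CPM, set after these values had been seen, 5 libraries had either Xist or the Y-linked transcripts and 4 had neither: replicate 1 at 24 and 48 h, and replicates 1 and 2 at 72 h. The 72 h group thus holds 2 libraries with neither, against 1 in each of the other groups, and duration and this class cannot be fully told apart. The first principal component, with 43.8% of the variance, placed 24 h replicates 2 and 3 and 48 h replicates 2 and 3 at 23.5 to 34.5 and the other 5 at -44.8 to -9.99. Of the 30 genes that weighed most on its high side, 10 are on the list of enteroendocrine cell genes: Sst, Gcg, Chga, Chgb, Neurod1, Gip, Cck, Tac1, Pcsk1 and Tph1.

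Enteroendocrine genes were low in every library with neither Xist nor Y-linked transcripts, whatever its duration. Their mean level over 20 tested genes was 2.07, 5.52 and 5.38 in the 24 h replicates, 2.36, 5.76 and 5.50 at 48 h, and 2.14, 1.52 and 3.90 at 72 h. The 3 durations overlapped, and the 4 libraries with neither Xist nor Y-linked transcripts were the 4 lowest. Chga, which encodes the granule protein chromogranin A, was at 2.49, 89.9 and 112 CPM at 24 h, 3.42, 164 and 122 CPM at 48 h, and 12.4, 2.53 and 49.6 CPM at 72 h. Sst, the hormone somatostatin, was at 1.25, 94.6 and 82.3 CPM, then 0, 135 and 141 CPM, then 0, 0.842 and 7.08 CPM in the same order. Both genes were at most 12.4 CPM in every library with neither and were lower in 72 h replicate 3 than in the other libraries with one. Vim, the only tested member of the fibroblast list, was high in the same 4 libraries at 24 and 48 h and low in all 3 at 72 h: 1.25, 19.1 and 21.3 CPM, then 0, 18.7 and 17.6 CPM, then 4.13, 0 and 1.18 CPM. The whole fibroblast list summed to 1.25 to 30.9 CPM at 24 h, 2.57 to 25.0 CPM at 48 h and 0 to 5.17 CPM at 72 h, and 2 of its 12 genes had no count in any of the 9 libraries. Vim alone gave 19.1 of the list's 20.7 CPM in 24 h replicate 2 and 21.3 of its 30.9 CPM in 24 h replicate 3. The rest of the list, with Col1a1, Col1a2, Col3a1, Dcn and Pdgfra, did not pass the filter on low counts. These values do not show that fibroblasts were present, and a link to the enteroendocrine values was not tested. Over the 27 libraries of the other treatments, the enteroendocrine level was taken over 23 genes tested with all 36 libraries. It was 2.51 to 5.51, with a median of 4.40, in the 19 with Xist or Y-linked transcripts and 1.34 to 3.14, with a median of 1.83, in the 8 with neither. The Y-linked level was graded near the minimum. The library at 3.14 (90 min, 48 h, replicate 3) had 48.3 CPM, and that at 2.51 (DMSO, 48 h, replicate 3) had 63.1 CPM.

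**Figure D1:**
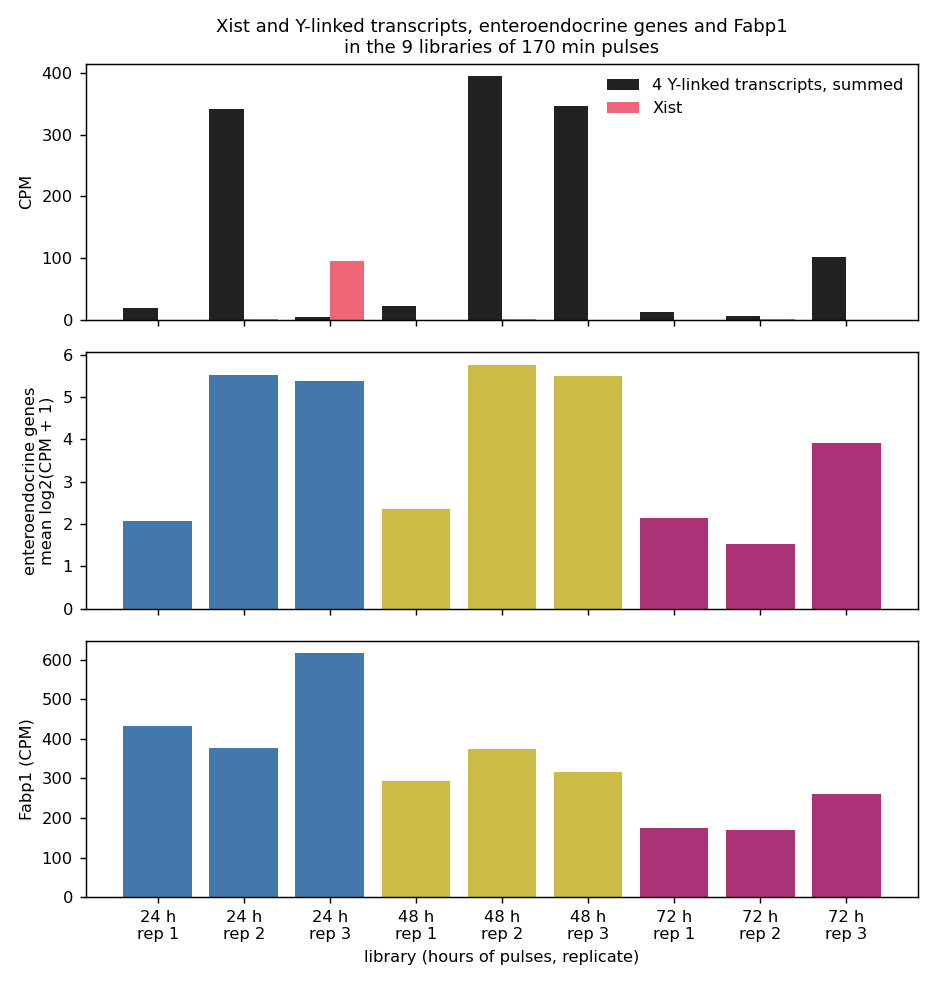
Summed CPM of 4 Y-linked transcripts and of Xist (top), mean log2(CPM + 1) of 20 enteroendocrine genes (middle) and CPM of Fabp1 (bottom) in each of the 9 libraries, coloured by duration in the lower panels. Enteroendocrine genes are lowest in the 4 libraries with neither Xist nor Y-linked transcripts, while Fabp1 is at 378 to 616 CPM in every 24 h library and at 169 to 260 CPM in every 72 h library.

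Between 24 and 72 h of 170 min pulses no gene passed the threshold. The smallest p on the lower side belonged to the absorptive genes Fabp1 and Slc2a5 and to Tstd3, and on the higher side to Pvt1, Clcf1 and Unc13d. edgeR's quasi-likelihood test with Benjamini-Hochberg adjustment called 0 of 11152 genes at 0.05 (0%), with a smallest adjusted p of 0.361. At an unadjusted p under 0.05 there were 924 genes (8.29% of those tested), 409 higher (3.67%) and 515 lower (4.62%) at 72 h. DESeq2 called 16 genes, 3 higher and 13 lower, and edgeR without the filter on low counts called 287. Without 72 h replicate 3 edgeR called 12 genes, 11 of them lower, with Fabp1, Mme, Slc6a20a, Defa24 and Ang4 among the 11. The 2 libraries then left at 72 h both had neither Xist nor Y-linked transcripts, against 1 of 3 at 24 h. Duration and class are thus more closely tied in that fit. Leaving out any other library gave 0. The 3 libraries of a group were nearly as far apart as libraries of different groups: the mean distance between libraries was 63.8 within 24 h, 58.1 within 72 h and 66.4 between 24 and 72 h, as the root of the summed squared differences in log2(CPM + 1).

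Fabp1, which encodes the fatty acid binding protein of absorptive cells and liver, had the smallest p in this comparison. It was at 432, 378 and 616 CPM at 24 h, 294, 374 and 316 CPM at 48 h and 176, 169 and 260 CPM at 72 h. All 72 h values lay below all values at 24 and 48 h, with a log2 difference of -1.25 (SE 0.21) between 72 and 24 h and an adjusted p of 0.361 by edgeR. Slc2a5, the fructose transporter GLUT5 of the brush border, was at 58.5, 35.8 and 61.7 CPM at 24 h, 33.4, 41.0 and 31.9 CPM at 48 h and 16.5, 2.53 and 11.8 CPM at 72 h. Its log2 difference was -2.38 (SE 0.43), again with no overlap and with an adjusted p of 0.361. Tstd3, a thiosulfate sulfurtransferase-like gene, had the next smallest p, at 30.2 to 54.9 CPM at 24 h and 8.27 to 11.8 CPM at 72 h. On the higher side, Pvt1, a long non-coding RNA next to Myc that p53 can induce, was at 22.4, 24.7 and 25.4 CPM at 24 h and 62.0, 55.6 and 39.0 CPM at 72 h. Clcf1, a cytokine of the interleukin-6 family, was at 6.86 to 11.2 CPM at 24 h and 37.2, 69.9 and 18.9 CPM at 72 h. Unc13d, a priming factor of exocytosis, was at 1.37 to 3.18 CPM and 9.44 to 17.7 CPM. None of these 6 genes overlapped between the durations, as also held for 627 genes higher (5.62% of those tested) and 660 lower (5.92%) at 72 h.

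Genes outside the panel and the rule for the smallest p, among them those named from the principal component, from the calls without 72 h replicate 3 and from the lists below, were chosen after their values had been seen. The enterocyte list, of absorptive transporters, apolipoproteins and digestive enzymes, had 46 of 48 members tested, with a median log2 difference of -0.50 between 72 and 24 h against -0.00212 over all tested genes. Of the 46, 42 were lower and 4 higher; 14 were lower and 0 higher at an unadjusted p under 0.05 (4.62% and 3.67% over all tested genes), and 8 were lower without overlap (5.92% over all). Apoa4, the apolipoprotein of chylomicrons, was at 97.2, 50.1 and 114 CPM at 24 h and 14.5, 5.05 and 40.1 CPM at 72 h. The groups did not overlap, with a log2 difference of -2.22 (SE 0.57). Apoa1, an apolipoprotein of high-density lipoprotein, was at 749, 361 and 608 CPM at 24 h and 287, 164 and 434 CPM at 72 h, where 72 h replicate 3 lay above 24 h replicate 2. Sis, the disaccharidase sucrase-isomaltase, was at 609, 437 and 621 CPM and at 363, 159 and 445 CPM, also with overlap. Mme, a brush-border peptidase outside the list, was at 186, 116 and 156 CPM at 24 h and 52.7, 30.3 and 106 CPM at 72 h. Alpi, the intestinal alkaline phosphatase of mature enterocytes, did not share this order: it was at 659, 512 and 618 CPM at 24 h and 573, 531 and 722 CPM at 72 h.

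The list as a whole was low in 2 of the 3 libraries at 72 h. The list's mean level was 7.27, 6.76 and 7.31 in the 24 h replicates, 7.12, 7.09 and 6.95 at 48 h, and 6.49, 5.87 and 6.96 at 72 h, so that replicates 1 and 2 at 72 h were the lowest of all 9 and replicate 3 lay among the others. Those 2 libraries both had neither Xist nor Y-linked transcripts. Among the 3 libraries with neither at these durations the median difference over the 46 genes was -0.88, and among the 3 with either it was 0.02. The 24 and 48 h libraries with neither were not low, at 7.27 and 7.12. Each of these differences within a class has 1 library on one side, 24 h replicate 1 for those with neither and 72 h replicate 3 for those with either, and is a description with no replicate check; the same holds for every value by class below. In these bulk samples, fewer cells of a type and less RNA per cell cannot be told apart.

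**Figure D2:**
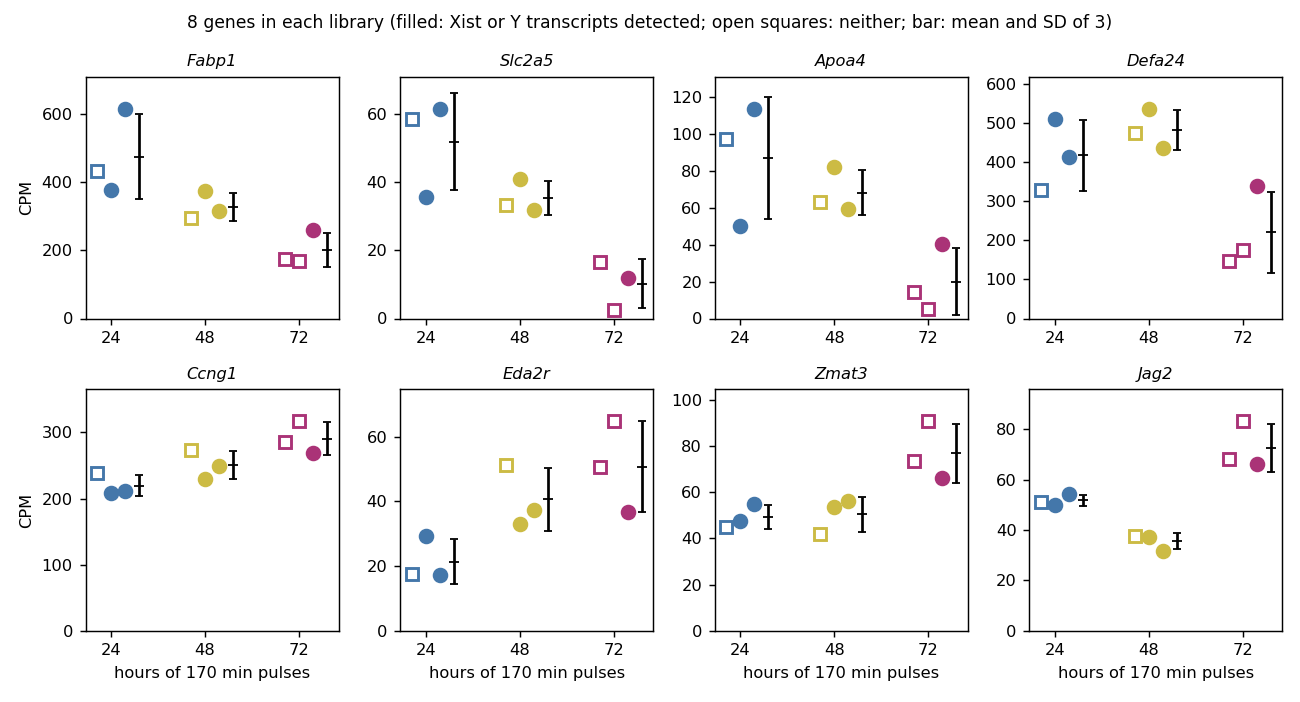
CPM of 8 genes in each of the 9 libraries against hours of 170 min pulses, with the mean and SD of 3 replicates drawn as a bar beside each group; filled circles are libraries with Xist or Y-linked transcripts and open squares those with neither. Fabp1, Slc2a5 and Apoa4 are lower in all 72 h than in all 24 h libraries, Ccng1, Eda2r, Zmat3 and Jag2 are higher in all of them, and Defa24 overlaps through 72 h replicate 3.

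The 250 bases before the start of Fabp1 and Sis are shown because both are classic HNF1-bound promoters of enterocytes, and those of Sst because its promoter holds the textbook cyclic AMP response element. The sequences are from RefSeq on GRCm38.p6, at chr6:71199629-71199878 on the plus strand, chr3:72967864-72968113 on the minus strand and chr16:23890845-23891094 on the minus strand. They are written 5′ to 3′, with matches in capitals to TATAAA (the TATA box), GTTAAT (an HNF1 half-site) and TGACGTCA (the cyclic AMP response element) on either strand. In Sis a match to TATAAA overlaps a match to its reverse complement.
Fabp1: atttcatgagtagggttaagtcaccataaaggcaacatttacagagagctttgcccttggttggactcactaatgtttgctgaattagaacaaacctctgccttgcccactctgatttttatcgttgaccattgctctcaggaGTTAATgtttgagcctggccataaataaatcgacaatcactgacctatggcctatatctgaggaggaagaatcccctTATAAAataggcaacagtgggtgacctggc
Sis: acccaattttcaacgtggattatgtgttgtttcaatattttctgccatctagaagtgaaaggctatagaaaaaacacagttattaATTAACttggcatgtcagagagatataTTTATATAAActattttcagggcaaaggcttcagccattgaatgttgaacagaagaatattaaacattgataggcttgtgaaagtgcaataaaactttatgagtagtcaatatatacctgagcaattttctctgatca
Sst: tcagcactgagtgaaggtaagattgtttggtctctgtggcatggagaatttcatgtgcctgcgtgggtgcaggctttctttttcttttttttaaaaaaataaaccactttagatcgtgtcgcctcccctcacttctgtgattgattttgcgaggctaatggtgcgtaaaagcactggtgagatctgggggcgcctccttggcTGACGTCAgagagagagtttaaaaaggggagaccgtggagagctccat
Fabp1 has TATAAA beginning 30 bases and GTTAAT beginning 107 bases before the start. Sis has the reverse complement of GTTAAT at 165 bases, TATAAA at 134 bases and the reverse complement of TATAAA at 138 bases. Sst has TGACGTCA at 48 bases. Of 32851 promoters of this length, 12.4% hold TATAAA, 6.43% GTTAAT and 1.55% TGACGTCA. Of the 8 genes looked up, all were matched, and Slc2a5, Apoa4, Apoa1 and Chga held no match to any of the 3 motifs in this window.

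Paneth cell genes were lower at 72 h than at 24 h in the same 2 libraries. Of 35 list members, 22 were tested, with a median log2 difference of -0.71; 17 were lower and 5 higher, 8 lower and 0 higher at an unadjusted p under 0.05 (4.62% and 3.67% over all tested genes), and 4 lower without overlap (5.92% over all). The median was -0.95 among libraries with neither Xist nor Y-linked transcripts and -0.14 among those with either. Their mean level was 6.75, 7.06 and 6.75 at 24 h, 7.26, 7.25 and 6.84 at 48 h and 5.53, 6.05 and 6.82 at 72 h. Defa24, an alpha-defensin, was at 329, 510 and 413 CPM at 24 h, 475, 537 and 436 CPM at 48 h and 148, 174 and 338 CPM at 72 h. Its value in 72 h replicate 3 lay within the 24 h range, and its adjusted p was 0.530 by edgeR. Lyz1, the Paneth lysozyme, was at 371, 852 and 586 CPM at 24 h and 244, 184 and 614 CPM at 72 h. Ang4, an antimicrobial ribonuclease, was at 257, 289 and 228 CPM and at 116, 153 and 220 CPM, without overlap. Mmp7, the protease that activates defensins, did not share this order, at 431, 303 and 189 CPM and at 295, 314 and 352 CPM. Alpha-defensin genes are near-identical copies, and the sources used here do not say how reads were divided among them, so their single values are uncertain.

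Antimicrobial and related genes of the lower villus had a median of -0.22 over 10 tested members, 8 of them lower at 72 h. Their median was -0.55 among libraries with neither Xist nor Y-linked transcripts and 0.06 among those with either. The lectin Reg3b was at 167, 49.3 and 105 CPM at 24 h, 138, 110 and 129 CPM at 48 h and 43.4, 11.8 and 53.1 CPM at 72 h, where 72 h replicate 3 exceeded 24 h replicate 2. Reg3g, its close paralogue, was at 167, 89.9 and 104 CPM at 24 h and 96.1, 68.2 and 95.6 CPM at 72 h, with overlap.

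Of 53 tested drug-metabolising genes of the Cyp, Ugt and Gst families, 33 were lower and 20 higher, 13 and 3 of them at an unadjusted p under 0.05 (4.62% and 3.67% over all tested genes), with a median of -0.25. The direction turned with the class: the median was -0.42, with 43 lower, among libraries with neither Xist nor Y-linked transcripts and 0.15, with 36 higher, among those with either. Cyp3a11, a major intestinal drug oxidase, was at 544, 511 and 612 CPM at 24 h, 614, 700 and 715 CPM at 48 h and 399, 448 and 464 CPM at 72 h. These 3 ranges did not overlap for 72 h against either other duration. Cyp2c55 was on the other side, at 289, 214 and 245 CPM at 24 h and 344, 439 and 303 CPM at 72 h. Cyp1b1, a target of the aryl hydrocarbon receptor, was at 16.2, 24.7 and 2.06 CPM and at 49.6, 102 and 64.9 CPM.

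The enteroendocrine list had the lowest median of the 41 lists with a tested member, apart from the fibroblast list with its 1 gene, at -2.24 between 72 and 24 h, and 19 of 20 tested genes were lower. Of the 19, 5 had an unadjusted p under 0.05 (4.62% over all tested genes) and 1 did not overlap, a share near the 5.92% over all. It was the crystallin gene Cryba2, at 2.49 to 9.54 CPM at 24 h and 0.842 to 2.36 CPM at 72 h. With the class of library as a term in the fit the median was -1.23; among libraries with neither Xist nor Y-linked transcripts it was -0.57 and among those with either it was -1.32. Sst was the single gene of 11152 (0.00897%) called with that term, at a log2 difference of -3.37 and an adjusted p of 0.0209 by edgeR. The term treats 72 h replicate 3, with Y-linked transcripts at 102 CPM, like the other libraries with them, at 341 to 395 CPM. With the summed Xist and Y level as a covariate instead, no gene was called. Of 9 tested tuft cell genes, 7 were lower, with a median of -0.53, but the median was 0.59, with 6 higher, among libraries with neither and -0.76, with 8 lower, among those with either. Dclk1, the tuft cell kinase, was at 0, 19.1 and 25.4 CPM at 24 h, 5.14, 15.2 and 14.3 CPM at 48 h and 4.13, 0.842 and 2.36 CPM at 72 h, so that the groups overlapped through 24 h replicate 1.

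Of 28 tested goblet cell genes, 19 were higher and 9 lower at 72 h, with a median of 0.17. At an unadjusted p under 0.05 by edgeR, 4 were higher and 0 lower (3.67% and 4.62% over all tested genes). The direction turned with the class of library: the median was -0.10, with 19 lower, among libraries with neither Xist nor Y-linked transcripts and 0.36, with 25 higher, among those with either. Muc2, the gel-forming mucin, was at 377, 300 and 285 CPM at 24 h, 254, 394 and 520 CPM at 48 h and 311, 352 and 489 CPM at 72 h. Its durations overlapped.

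The lists of Notch pathway genes had small median differences between durations. Their ligand Jag2 stood apart, with a log2 difference of 1.02 (SE 0.17) between 72 and 48 h. Hes1 was at 369, 348 and 318 CPM at 24 h, 318, 352 and 415 CPM at 48 h and 355, 280 and 332 CPM at 72 h, a log2 difference between 72 and 24 h of -0.10 (SE 0.13). Atoh1 was at 74.7, 98.6 and 84.3 CPM at 24 h, 111, 106 and 148 CPM at 48 h and 62.0, 119 and 93.3 CPM at 72 h. All 48 h values lay above all 24 h values, and the 72 h values spanned both. The ligand Dll1 was at 51.1 to 81.1 CPM at 24 h and 56.4 to 65.1 CPM at 72 h, and the ligand Dll4 at 42.5 to 61.0 CPM and 41.3 to 65.7 CPM. The 4 tested targets and receptors had a median of 0.05, the 4 tested ligands 0.15 and the 9 tested genes of gamma-secretase and Notch processing -0.00325. The ligands' median was 0.40 among libraries with neither Xist nor Y-linked transcripts and -0.22 among those with either. Of these genes 1 lacked overlap, where 5.62% of all tested genes did so on the higher and 5.92% on the lower side. It was Jag2, a ligand, at 51.1, 50.1 and 54.2 CPM at 24 h, 37.7, 37.4 and 31.9 CPM at 48 h and 68.2, 83.4 and 66.1 CPM at 72 h.

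Stem cell genes had a median of -0.10 over 22 tested members, 15 of them lower, with 1 library apart. Lgr5, the receptor for R-spondin, was at 171, 207 and 158 CPM at 24 h, 166, 211 and 172 CPM at 48 h and 151, 62.3 and 142 CPM at 72 h. Olfm4, a secreted marker of crypt base columnar cells, was at 772, 893 and 617 CPM, 822, 924 and 923 CPM, and 841, 78.3 and 610 CPM. The low value of both genes was in 72 h replicate 2. Ascl2, a stem cell transcription factor, was not low there, at 213, 204 and 218 CPM at 72 h against 222, 197 and 165 CPM at 24 h. Proliferation genes had small differences: Mki67 was at 213 to 229 CPM at 24 h and 193 to 245 CPM at 72 h, Pcna at 95.3 to 162 CPM and 111 to 146 CPM, and the medians were 0.05 over 30 S phase and 0.09 over 31 G2 and M phase genes.

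Targets of p53, the factor that halts the cycle after damage or stress, were mostly higher at 72 h. Of 25 tested members of 27, 21 were higher and 4 lower, 7 and 1 of them at an unadjusted p under 0.05 (3.67% and 4.62% over all tested genes), and 7 were higher without overlap (5.62% over all), with a median of 0.37. Ccng1, cyclin G1, was at 238, 209 and 212 CPM at 24 h, 273, 230 and 249 CPM at 48 h and 285, 317 and 269 CPM at 72 h. Eda2r, a receptor of the tumour necrosis factor family, was at 17.4, 29.4 and 17.1 CPM, 51.4, 33.0 and 37.4 CPM, and 50.7, 64.8 and 36.6 CPM. Zmat3, an RNA-binding protein, was at 44.8, 47.7 and 54.9 CPM, 41.9, 53.5 and 56.0 CPM, and 73.4, 90.9 and 66.1 CPM. All 3 were higher in every 72 h than in every 24 h library. Their log2 differences were 0.41, 1.25 and 0.64 (SE 0.11, 0.29 and 0.18), and their adjusted p were 0.413, 0.361 and 0.478 by edgeR. Cdkn1a, the p21 inhibitor of cyclin-dependent kinases, overlapped, at 232, 173 and 224 CPM at 24 h and 280, 304 and 223 CPM at 72 h. The median was 0.37 among libraries with neither Xist nor Y-linked transcripts and 0.18 among those with either.

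Genes of a fetal-like state and targets of YAP, which are switched on in epithelium that repairs itself, had a median of 0.40 over 21 tested members of 30. Of these, 16 were higher and 5 lower, 8 and 0 at an unadjusted p under 0.05 (3.67% and 4.62% over all tested genes), and 5 were higher without overlap (5.62% over all). Ly6a, the surface protein Sca-1, was at 186, 161 and 84.3 CPM at 24 h, 219, 106 and 132 CPM at 48 h and 274, 440 and 221 CPM at 72 h. Clu, clusterin, overlapped, at 245, 234 and 141 CPM at 24 h and 247, 417 and 244 CPM at 72 h. The highest value of both was in 72 h replicate 2, the library with low Olfm4. The list's median was 0.81 among libraries with neither Xist nor Y-linked transcripts and -0.04 among those with either. The panel genes of metabolism and inflammation overlapped: Hmgcs1, of cholesterol synthesis, was at 338 to 428 CPM at 24 h and 345 to 424 CPM at 72 h, and Nfkbia, the inhibitor of NF-kB, at 172 to 201 CPM and 161 to 210 CPM.

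**Figure D3:**
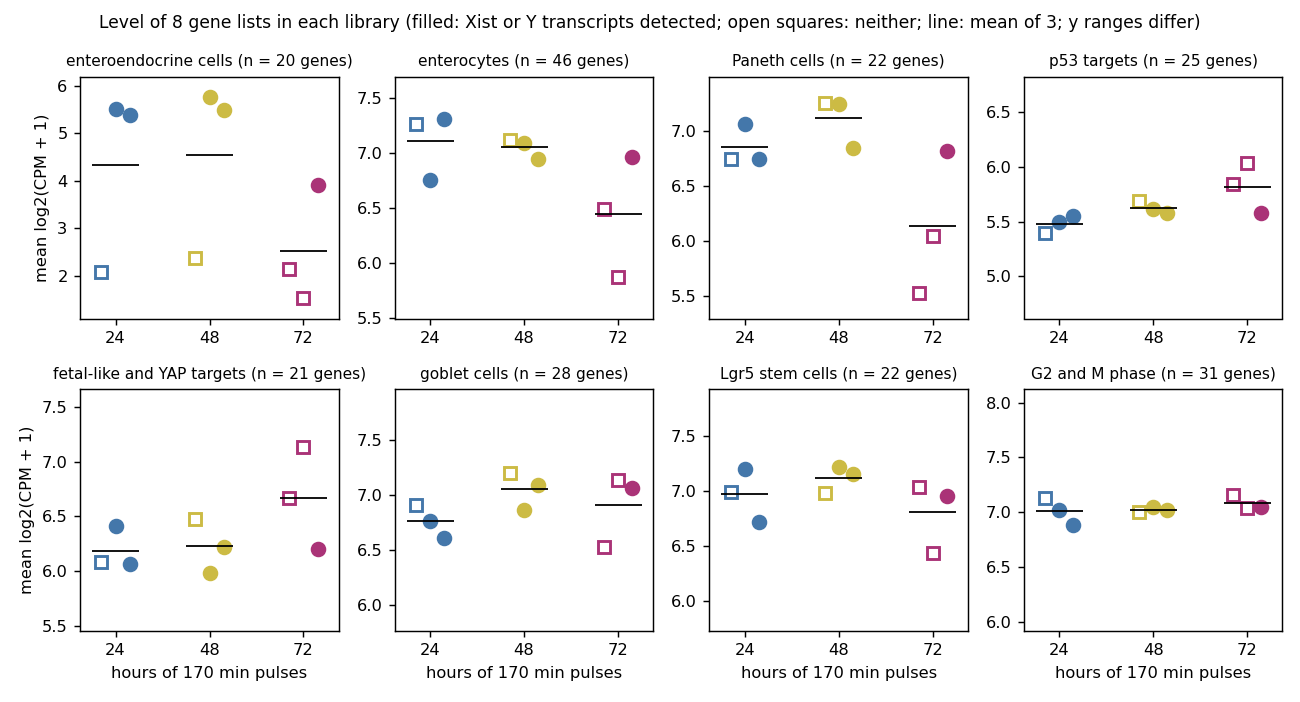
Mean log2(CPM + 1) of 8 gene lists in each of the 9 libraries against hours of 170 min pulses, with a line at the mean of 3; filled circles are libraries with Xist or Y-linked transcripts, open squares those with neither, and the y ranges differ. Enteroendocrine genes separate the 2 classes, while enterocyte and Paneth cell genes are low in 72 h replicates 1 and 2 and not in the 24 and 48 h libraries of the same class.

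**Figure D4:**
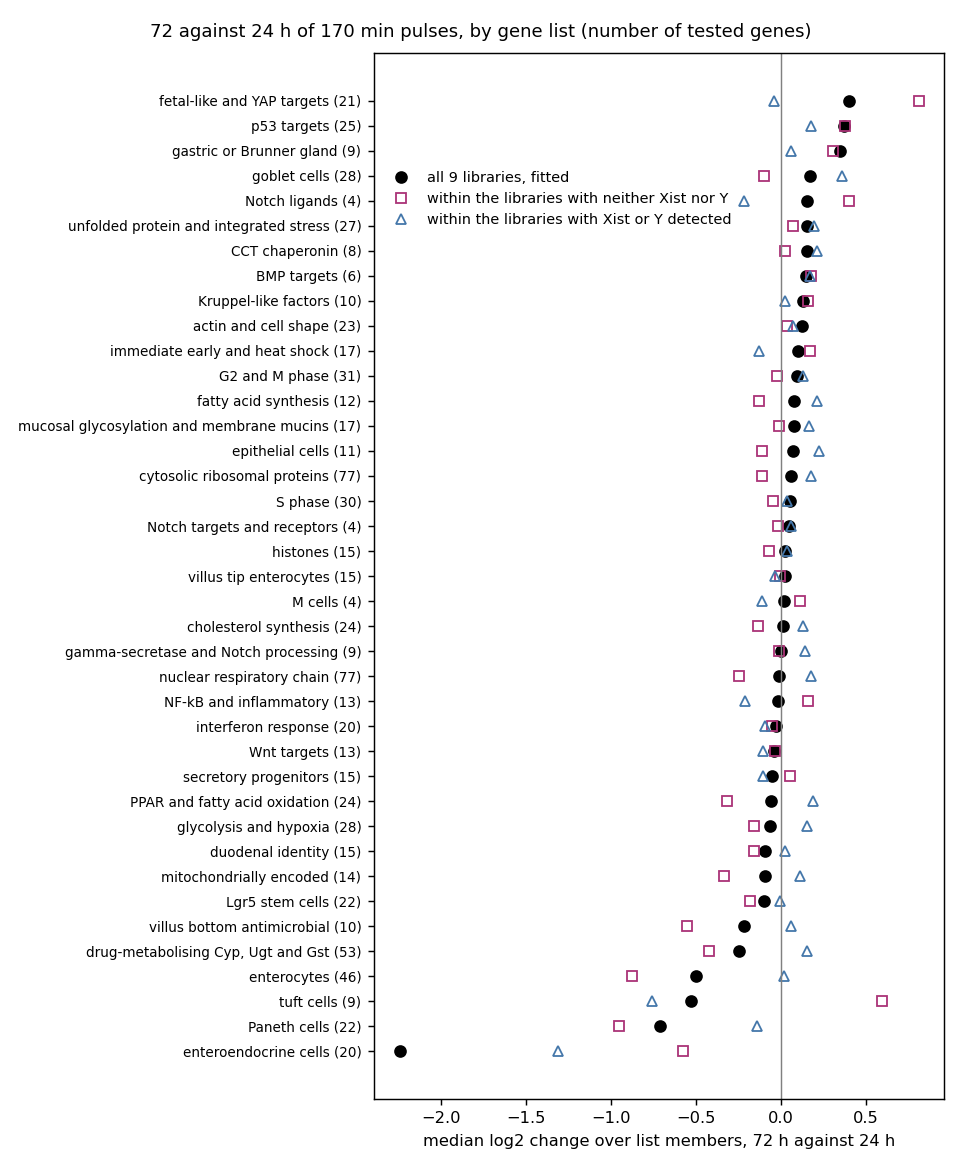
Median log2 difference between 72 and 24 h over the tested members of each list with 4 or more (number in brackets): fitted over all 9 libraries (filled circles), within libraries with neither Xist nor Y-linked transcripts (squares) and within those with either (triangles). The enterocyte median is -0.50, -0.88 and 0.02 and that of p53 targets 0.37, 0.37 and 0.18 in this order.

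The mean distance between libraries at 24 and 48 h was 56.6, below that within 24 h. edgeR called 0 genes (0%), DESeq2 called 0, and 165 (1.48%) had an unadjusted p under 0.05, 89 higher (0.798%) and 76 lower (0.681%); 2.8% were higher and 3.19% lower without overlap. The smallest adjusted p was 1.00. The 3 higher genes with the smallest p included Clca1, a protein of goblet cell mucus, at 192, 136 and 138 CPM at 24 h and 250, 194 and 253 CPM at 48 h, where 48 h replicate 2 barely exceeded 24 h replicate 1. Rgs2, a regulator of G protein signalling, was at 22.4, 45.3 and 36.3 CPM at 24 h and 64.8 to 67.6 CPM at 48 h. Cxxc5, a zinc finger protein of the Wnt and BMP pathways, was at 24.9 to 31.8 CPM and 48.3 to 60.8 CPM. On the lower side Rasa4, a calcium-dependent Ras inhibitor, was at 53.6, 54.9 and 56.9 CPM at 24 h and 29.1, 29.4 and 28.6 CPM at 48 h, and the predicted genes Gm4950 and Gm5425 followed. All 6 lacked overlap, and at 72 h Rgs2, at 35.1 to 42.1 CPM, and Rasa4, at 31.9 to 55.6 CPM, overlapped with 24 h again. List medians between 48 and 24 h were -0.06 for enterocytes, 0.25 for Paneth cells, 0.10 for enteroendocrine cells and 0.07 for p53 targets. For goblet cells the median was 0.25, above the 0.17 between 72 and 24 h, with 25 of 28 genes higher, 7 of them without overlap and 3 at an unadjusted p under 0.05. It was 0.18 for secretory progenitors, 0.16 for the interferon response and -0.21 for glycolysis and hypoxia. The interferon list's mean level was 5.41, 5.25 and 5.52 at 24 h and 6.22, 5.36 and 5.30 at 48 h, above the 24 h range in replicate 1 alone. That of glycolysis and hypoxia was 6.03, 5.76 and 6.56 at 24 h and 5.95, 6.09 and 5.62 at 48 h, with overlap.

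Between 48 and 72 h the lowest adjusted p of the 3 comparisons was reached, still above the threshold. edgeR called 0 genes (0%), with 947 (8.49%) at an unadjusted p under 0.05, 418 higher (3.75%) and 529 lower (4.74%), and with 6.99% higher and 7.32% lower without overlap. DESeq2 called 18, 3 higher and 15 lower, and edgeR called 12 without 72 h replicate 3, 0 without any other library, and 234 without the filter on low counts. Without 72 h replicate 3, every library left at 72 h had neither Xist nor Y-linked transcripts. Sectm1b, a secreted and membrane protein of the intestine, was at 127, 97.2 and 101 CPM at 48 h and 54.8, 47.1 and 59.0 CPM at 72 h. Slc46a1, the proton-coupled folate transporter of the duodenum, was at 67.6, 79.3 and 71.4 CPM and at 36.2, 28.6 and 31.9 CPM. Their log2 differences were -1.03 (SE 0.16) and -1.18 (SE 0.18) and each had an adjusted p of 0.0889 by edgeR; all 72 h values of both lay below all values at 24 and 48 h. Both were among 6 genes (0.0538%) called with the class of library as a term, with Sst, Hmgn3, Tac1 and Tmem37. With the summed Xist and Y level as a covariate instead, 1 gene was called. Ugt2b38, a glucuronosyltransferase, was at 17.1, 25.0 and 48.3 CPM at 48 h and 3.10, 1.68 and 5.90 CPM at 72 h.

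On the higher side between 48 and 72 h were Jag2, with its values above and an adjusted p of 0.141, Id1 and CT010467.1. Id1, a target of BMP signalling that inhibits differentiation factors, was at 153, 99.4 and 106 CPM at 24 h, 82.2, 81.1 and 81.3 CPM at 48 h and 161, 168 and 118 CPM at 72 h. Both Jag2 and Id1 were lowest at 48 h, below every library of the other durations. CT010467.1 was at 74.5, 90.0 and 83.5 CPM at 48 h and 186, 240 and 132 CPM at 72 h. The list medians were -0.43 for enterocytes, -0.95 for Paneth cells, -2.38 for enteroendocrine cells and 0.48 for fetal-like and YAP targets, and this comparison shares its 72 h libraries with the first.

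The time difference at 170 min was compared with that in the other treatments by the difference of the 2 differences, in 1 fit to all 36 libraries with 11462 genes tested. No gene passed against DMSO, 90 min or 130 min pulses (0% each by edgeR); at an unadjusted p under 0.05 there were 633 (5.52%), 181 (1.58%) and 363 (3.17%). In that fit 72 against 24 h gave 0 calls (0%) in DMSO, 90 min and 170 min and 24 (0.209%) in 130 min. The 3 comparisons between treatments share the 170 min libraries. Same-numbered libraries at 130 and 170 min were of the same Xist and Y class at every duration. At 24 h, for example, Xist was at 93.9 CPM in replicate 3 of both. The fit held no term for such pairs within a duration, so spread that they may share was not removed from the difference between 170 and 130 min. Fabp1 was lower at 72 h in each treatment by its estimate, at -0.67 (SE 0.47) in DMSO, -0.44 (SE 0.47) at 90 min, -1.86 (SE 0.50) at 130 min and -1.25 (SE 0.47) at 170 min. Its difference from DMSO was -0.58 (SE 0.66), with an adjusted p of 0.902 by edgeR. For Slc2a5 the 4 values were -0.15 (SE 0.67), -0.24 (SE 0.64), -1.84 (SE 0.73) and -2.38 (SE 0.71), and its difference from DMSO was -2.23 (SE 0.98), with an adjusted p of 0.857. Neither difference passed the test.

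The genes with the smallest p in these differences were others than those named for the time course. Against DMSO, Rbm25, a splicing factor, differed by 0.62 (SE 0.18), Lsr, a lipoprotein receptor of tricellular junctions, by 0.89 (SE 0.26) and Ifi202b, an interferon-inducible DNA sensor, by 4.58 (SE 1.33), each with an adjusted p of 0.857. The lower ones were 2310001H17Rik, Gm16559 and Nudt16, at -1.05, -4.12 and -1.06. Against 130 min, Timm8b and Sdhd were on the higher side at 0.62 and 0.72 and Flna, Pigv and Rabep2 on the lower side at -2.55 to -0.63. Against 90 min, 2010016I18Rik, Eif2b2 and Dnal4 were at 0.80 to 1.63 and Zfp358, Dcaf11 and Mterf2 at -1.43 to -0.71. List medians of the time difference in DMSO, 90, 130 and 170 min were -0.18, -0.02, -1.07 and -0.50 for enterocytes. They were 0.06, 0.23, -0.41 and -0.71 for Paneth cells and 0.07, 0.17, 0.48 and 0.37 for p53 targets. In the fetal-like and YAP list they were -0.35, 0.05, 0.68 and 0.40. The class of library differed alongside: at 130 and 170 min, 2 of 3 libraries at 72 h and 1 of 3 at 24 h had neither Xist nor Y-linked transcripts, against 1 and 1 in DMSO and 0 and 1 at 90 min, and its part in these medians was not tested.

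**Figure D5:**
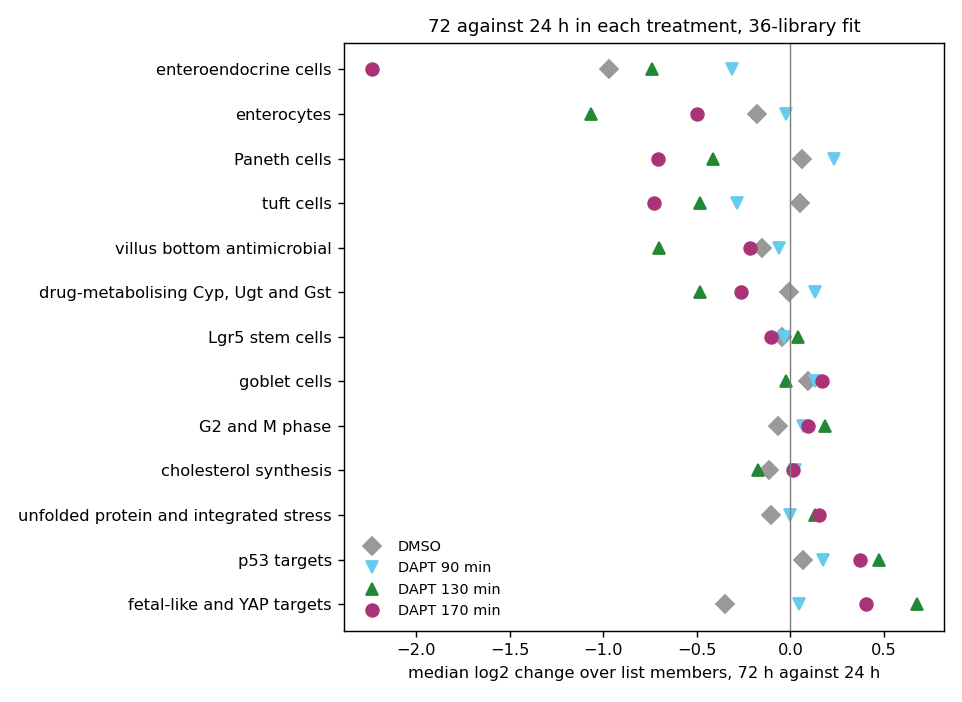
Median log2 difference between 72 and 24 h over the tested members of 13 gene lists in each of the 4 treatments, from the fit to 36 libraries. At 72 h, 2 of 3 libraries at 130 and at 170 min have neither Xist nor Y-linked transcripts, against 1 in DMSO and 0 at 90 min. Enterocyte genes are lowest at 130 min (-1.07), and Paneth cell and enteroendocrine genes at 170 min (-0.71 and -2.24).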

How the data were processed

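Polyadenylated RNA of whole organoids was sequenced by Sort-seq with unique molecular identifiers, per the labels' protocols. The authors deposited whole-number UMI counts per gene symbol; the submitters' processing notes name STAR 2.7.8a and UMI-tools 1.1.1, and the genome build, annotation and counting rule were not given in the sources used here. Totals were 841491 to 1447330 counts per library, which limits the precision of low genes.

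Groups were taken from the sample titles. In R 4.3.3, edgeR 4.0.16 (TMM, filterByExpr, robust quasi-likelihood fit and test, Benjamini-Hochberg adjustment over all tested genes, threshold 0.05) was run on the 9 libraries with 1 coefficient per duration and 6 residual degrees of freedom. Differences between treatments came from 1 fit to 36 libraries in 12 groups. CPM were computed for every gene with the same scaling, and 1 was added before log2. DESeq2 1.42.0, other scalings, no filter, a replicate block, each library left out and, added after the data were seen, the Xist and Y class of the library were alternatives. Between 24 and 48 h all 3 same-numbered pairs of libraries deviated together (correlation 0.17 to 0.57). Differently numbered pairs did so too, at 0.34 for 24 h replicate 3 with 48 h replicate 2 and 0.28 for 24 h replicate 2 with 48 h replicate 3. Whether the numbers pair the libraries cannot be told from these values. The code was tested on simulated data.

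The text names a panel of 28 genes, up to 4 called members per list (none were called) and, since no gene passed, the 3 genes with the smallest p in each direction of each comparison; other genes are said to be chosen after their values were seen. Some genes that the rule names are not reported here. The libraries, the 43 gene lists and the panel were chosen with earlier results of these data known, so no list is independent evidence of its direction. Lists are described by counts and medians without a test.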

Additional observations from a re-analysis of the deposited data

How the results depend on the processing

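The count of genes called between 72 and 24 h, 0, became 16 with DESeq2, 287 without the filter on low counts, 1 with the Xist and Y class as a term and 75 in the 4 libraries with neither (1 residual degree of freedom; 13 higher, 62 lower). For 48 against 24 h the 0 became 11 without the filter and 4 in those 4 libraries, where it compares 1 library with 1 and takes the spread from the pair at 72 h. For 72 against 48 h the 0 became 18 with DESeq2, 234 without the filter, 6 with the class as a term, 1 with the summed Xist and Y level as a covariate and 39 in those 4 libraries. The count for 170 min minus DMSO became 3 without the filter. Of the 287, 242 were genes that the filter keeps, and edgeR's prior degrees of freedom, which set how far the spread is shared between genes, were 8.02 with the filter and infinite without it. With each library left out in turn the counts were 0 to 12 for 72 against 24 h and for 72 against 48 h, where only the fit without 72 h replicate 3 gave calls, and 0 for the other 4 comparisons. With the replicate number as a block they were 7, 0 and 6 in the order above and 0 for the 3 differences between treatments. Same-numbered libraries at 72 h deviated with those at 24 and 48 h in 1 of 3 pairs each (correlation above 0.1, lowest -0.06 and -0.30). So few pairs cannot decide whether the numbers pair the libraries for those comparisons. Other scalings, the library total as a covariate and the fit to 36 libraries left every count at 0. Of 1213 alternatives over 63 values of single genes, 1127 kept direction and side of the threshold and 47 kept direction and passed it. In 39 the direction turned with the gene called in neither fit, and in 0 it turned with the gene called in either. Of 760 over 40 list medians, 579 stayed within 0.1 log2 of the main value with the same sign and 181 did not. The cause of these differences was not tested. Depth limits genes of a few CPM, such as Scg2 and Unc13d.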
